A study of Mus musculus with 75 samples.

Results

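The 9 genes described here encode 5 fibroblast growth factors (FGFs), Fgf1, Fgf2, Fgf7, Fgf10 and Fgf18, and the 4 signalling receptors of the family, Fgfr1, Fgfr2, Fgfr3 and Fgfr4. They were chosen by symbol from the 55536 genes of the count table, and all 9 were among the 16221 genes with enough counts to be tested. RNA of the inferior lung lobe had been sequenced in 75 male C57BL/6JRj mice of 12 to 14 weeks, with 1 library per mouse. BLEO-IPF mice had received bleomycin (BLEO), a drug that injures the alveolar epithelium, into the trachea on 1 occasion, and only mice that had lost 5% to 17% of body weight on day 6 were allocated to a group. There were 10 BLEO-IPF mice on day 7, 12 on each of days 14, 21, 28 and 35, and 7 on day 42. The 10 control mice (CTRL) are labelled as given saline, whereas the treatment protocol in the same labels calls controls untreated. The labels name no genetic alteration, and all groups shared the same strain. The time course addresses how lung expression moved over the days after the injury.

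FGFs are secreted ligands that bind heparan sulfate and dimerize receptor tyrosine kinases at the cell surface, which then signal through the docking protein FRS2 to the RAS and MAP kinase cascade. In the lung, mesenchymal cells make FGF7 and FGF10, and these act on the epithelial splice form of FGFR2, a route that drives branching in the embryo and helps maintain alveolar type 2 (AT2) cells in the adult. FGFR1 is the main receptor of mesenchymal cells, FGF2 is a mitogen for fibroblasts, and FGF1 can bind every FGF receptor.

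The promoters of the ligand pair Fgf7 and Fgf10, of their receptor Fgfr2 and of Fgf2 are shown because the first 3 genes were lower and Fgf2 higher than in CTRL mice during the first weeks. RefSeq promoters (build GRCm38.p6) were at hand for 7 of the 9 members. Each line gives the 250 bases before the start in RefSeq, 5′ to 3′ on the strand of the gene. Capitals mark the motif GGGCGG on either strand, the GC box bound by SP1.
Fgf7: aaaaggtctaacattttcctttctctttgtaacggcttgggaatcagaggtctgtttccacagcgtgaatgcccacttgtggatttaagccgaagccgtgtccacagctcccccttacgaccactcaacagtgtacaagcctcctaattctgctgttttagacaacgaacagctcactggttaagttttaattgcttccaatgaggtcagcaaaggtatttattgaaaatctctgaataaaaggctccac
Fgf10: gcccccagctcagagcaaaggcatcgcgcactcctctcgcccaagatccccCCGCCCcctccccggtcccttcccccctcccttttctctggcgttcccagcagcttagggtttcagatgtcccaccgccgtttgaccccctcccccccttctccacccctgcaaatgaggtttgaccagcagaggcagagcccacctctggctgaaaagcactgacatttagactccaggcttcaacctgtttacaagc
Fgfr2: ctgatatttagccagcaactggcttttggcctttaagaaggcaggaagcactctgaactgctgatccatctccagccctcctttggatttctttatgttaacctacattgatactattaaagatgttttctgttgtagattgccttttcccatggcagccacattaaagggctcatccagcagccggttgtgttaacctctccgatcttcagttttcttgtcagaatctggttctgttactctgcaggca
Fgf2: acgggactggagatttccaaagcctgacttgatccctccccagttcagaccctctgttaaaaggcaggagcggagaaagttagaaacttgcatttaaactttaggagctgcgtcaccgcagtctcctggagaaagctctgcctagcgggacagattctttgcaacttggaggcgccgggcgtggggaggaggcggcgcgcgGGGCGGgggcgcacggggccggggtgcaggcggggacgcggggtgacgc

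These windows lie at chr2:126034408-126034657 (plus strand), chr13:118714449-118714698 (plus), chr7:130266809-130267058 (minus) and chr3:37348403-37348652 (plus). The Fgf7 window ends just before the gene span given below. Those of Fgf10, Fgfr2 and Fgf2 lie inside the spans given below, which are from GENCODE and not from RefSeq. Their values therefore do not describe the bases before those spans. The Fgf7 and Fgfr2 windows held 43.6% and 44% G and C, and those of Fgf10 and Fgf2 held 61.2% and 62.4%, against a median of 52.4% over 32851 promoter windows. GGGCGG matched the Fgf10 and the Fgf2 window at 1 place each, and it occurred in 32.7% of all windows. The motifs TATAAA (in 12.4% of all windows), CCGGAA (12%) and TGANTCA (6.75%) matched none of these 4 windows on either strand. A match is a description of the letters only.

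Total counts per library ran from 9240291 to 14665247, and group medians differed little. Lung markers were abundant, with the 10 AT2 markers summing to between 23672 and 28916 CPM (counts scaled to a common library total) in CTRL mice. The library of day 28 replicate 10 stood apart by its skeletal muscle markers (1507 CPM in sum, against a median of 4.54 CPM over all mice) and its brown adipose markers (376 CPM against 1.69 CPM), and the library of day 7 replicate 8 by its adipose markers (110 CPM). Leaving out both changed no call of a member against CTRL. The comparisons of the 6 days all used the same 10 CTRL mice and are not independent.

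Of the 9 members, 8 differed from CTRL on day 7 (2 higher and 6 lower), when 45.8% of all genes tested did (24.8% higher and 21% lower), by edgeR's quasi-likelihood test at an adjusted p under 0.05. On day 14, 8 members differed (2 higher and 6 lower) against 62.4% of all genes (32.4% higher and 29.9% lower). On day 21 it was again 8 (2 and 6) against 54.2% (28.3% and 25.8%). On day 28, 7 members differed (1 higher and 6 lower) against 43.3% (24.1% and 19.2%). On day 35, 3 members remained different, all lower, against 29.9% of all genes (16.9% higher and 13.1% lower). A fit of CTRL and day 35 alone called 6 members on that day, with Fgfr1 higher (0.25, adjusted p = 0.01 by edgeR's quasi-likelihood test), and a minimum absolute log2 fold change of 0.5 left 1. The share of all genes is not given for either setting, so neither count can be set against the 29.9%. On day 42 there were again 3, all lower, against 24.7% (13.7% and 11%). The median log2 fold change (log2FC) of the members was -0.43 on day 7, -0.38 on day 14 and -0.62 on day 21. On days 28, 35 and 42 it was -0.46, -0.28 and -0.21. That of all genes was 0.00, 0.01, 0.01, 0.02, 0.00 and 0.01 on the 6 days.

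**Figure D1:**
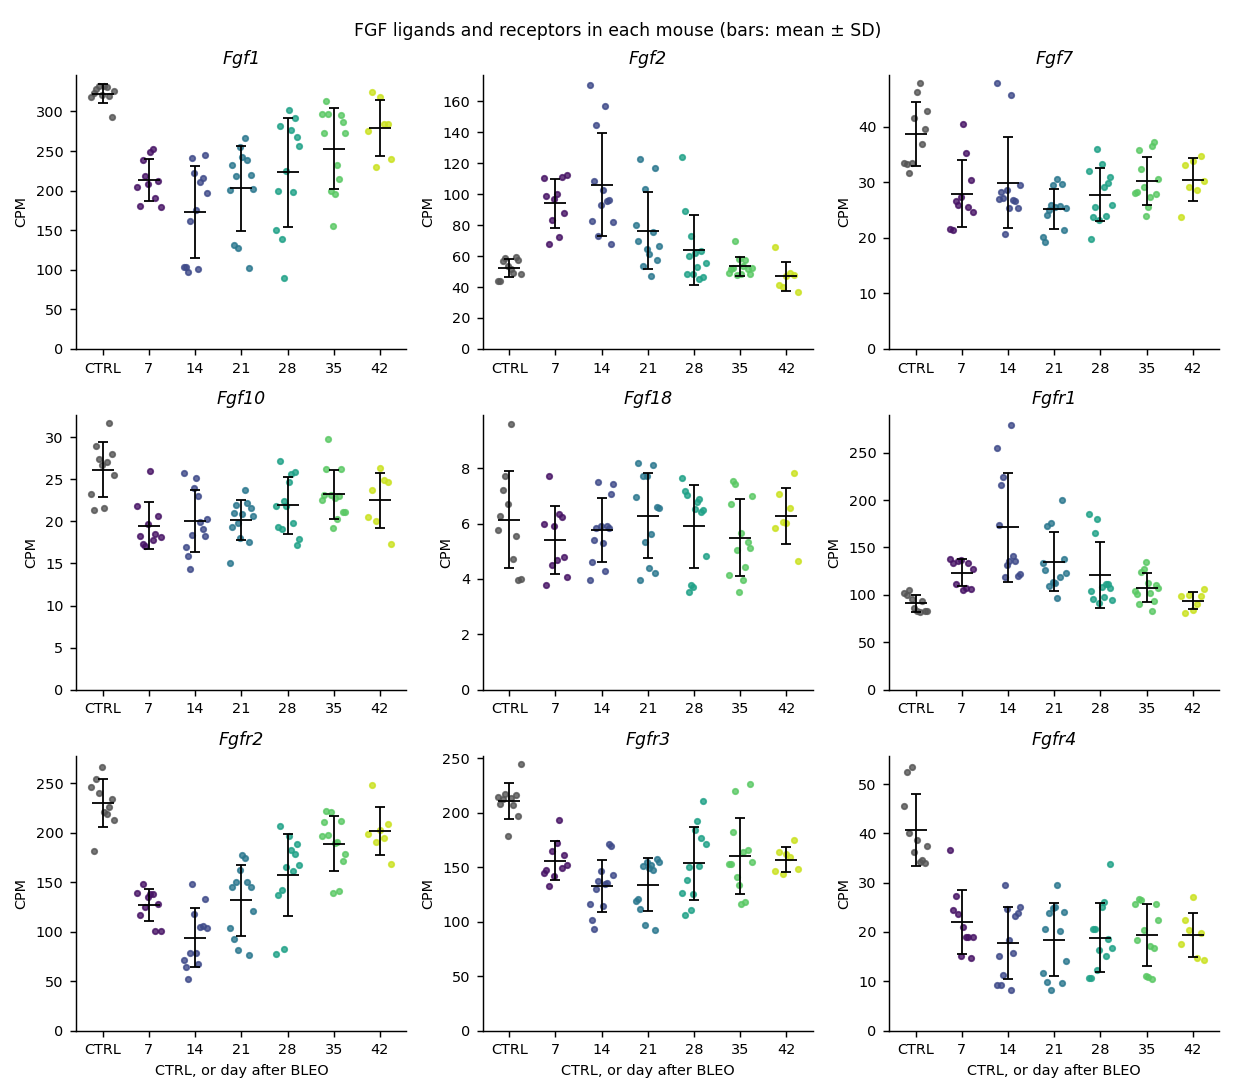
Expression of the 9 members in each of the 75 mice, in CPM on a linear axis from 0, for CTRL and for each day after BLEO. Points are mice and bars the mean ± SD. Fgf2 and Fgfr1 lay above, and Fgf1 and Fgfr2 below, all CTRL mice on days 7 and 14, while Fgfr4 stayed below all CTRL mice from day 14 to day 42.

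Fgf1 was the ligand with the most counts per length, at 59.1 CPM per kb of exon on average in CTRL mice. Fgf1 ranged from 293 to 333 CPM in CTRL mice (median 325), from 179 to 252 on day 7 (median 211) and from 97.01 to 245 on day 14 (median 186). On days 7, 14 and 21 every BLEO-IPF mouse was below every CTRL mouse. The log2FC was -0.60 ± 0.16 (SE, n = 10 against 10, adjusted p = 0.00172) on day 7, -0.90 ± 0.15 on day 14 (adjusted p = 7.53e-07) and -0.53 ± 0.15 on day 28 (adjusted p = 0.00354). On day 42, when mice ranged from 230 to 324 CPM, 5 of 7 were still below all CTRL mice and the log2FC of -0.21 ± 0.18 did not pass the test (adjusted p = 0.416). In order of mean level, Fgf1 ran from CTRL (323 CPM) through days 42, 35, 28, 7 and 21 to day 14 (173 CPM), and no neighbours in this order differed by the test. The mice varied more on day 14 (coefficient of variation 33.4%) than in CTRL (3.66%).

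Fgf2 (chr3:37348346-37410108, plus strand, build GRCm38) moved the opposite way. It ranged from 44.04 to 59.5 CPM in CTRL mice (median 52.4), from 67.6 to 113 on day 7 (median 97.6) and from 67.9 to 171 on day 14 (median 95.95), so that all 22 mice of these days were above all CTRL mice. Fgf2 rose by a log2FC of 0.85 ± 0.15 on day 7 (adjusted p = 5.57e-06), 1.02 ± 0.15 on day 14 (adjusted p = 1.55e-08) and 0.55 ± 0.15 on day 21 (adjusted p = 0.00119). The groups overlapped from day 21 on. On day 28 the log2FC was 0.29 ± 0.15 (adjusted p = 0.10) and on day 42 it was -0.16 ± 0.17 (adjusted p = 0.532), with mice between 36.96 and 66.1 CPM. Its order of means ran from day 14 (106 CPM) over days 7, 21, 28 and 35 and CTRL to day 42 (46.9 CPM), again with no neighbours that differed. Of the exon bases of Fgf2, 9.44% overlap Nudt6 on the opposite strand, a gene with 5.31% as many counts, and the sources used here do not say whether reads were counted by strand.

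Fgf7 (chr2:126034658-126091185, plus), known as keratinocyte growth factor, was lower on every day. It ranged from 31.7 to 47.9 CPM in CTRL mice (median 38.2), from 20.8 to 48 on day 14 (median 27.1), from 19.3 to 30.6 on day 21 (median 25.5) and from 23.8 to 34.8 on day 42 (median 30.3). Groups overlapped except on day 21, when all 12 mice were below all CTRL mice. The log2FC was -0.47 ± 0.11 on day 7 (adjusted p = 0.000465), -0.62 ± 0.11 on day 21 (adjusted p = 2.04e-06) and -0.34 ± 0.13 on day 42 (adjusted p = 0.0367). The day 42 call was lost without a filter on low counts (adjusted p = 0.0841), and when any 1 of 7 mice was left out (day 42 replicates 1, 3, 5 and 7, CTRL replicates 6, 7 and 10), with a highest adjusted p of 0.0869. On day 14, replicates 1 and 8 had 48 and 45.8 CPM of Fgf7, within or above the CTRL range, and the same animals had the highest Fgf2 and Fgfr1 of that day.

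Fgf10 (chr13:118669791-118792115, plus), the ligand without which lungs do not form, was lower on days 7 to 28. CTRL mice had 21.4 to 31.7 CPM (median 26.9), day 7 mice 17.1 to 26.02 (median 18.4), day 14 mice 14.4 to 25.7 (median 19.5) and day 42 mice 17.3 to 26.3 (median 23.7). All groups overlapped CTRL, although 8 of the 10 day 7 mice were below all CTRL mice. The log2FC was -0.42 ± 0.09 on day 7 (adjusted p = 0.000121), -0.38 ± 0.09 on day 14, -0.37 ± 0.09 on day 21 and -0.26 ± 0.09 on day 28 (adjusted p = 0.014). Values of -0.17 ± 0.09 on day 35 and -0.21 ± 0.10 on day 42 did not pass (adjusted p = 0.131 and 0.111). In the orders of means, Fgf7 went from CTRL (38.7 CPM) over days 42, 35, 14, 7 and 28 to day 21 (25.2 CPM), with a difference only between CTRL and day 42. Fgf10 went from CTRL (26.1 CPM) over days 35, 42, 28, 21 and 14 to day 7 (19.5 CPM), with no neighbours that differed.

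Fgf18 (chr11:33117430-33147400, minus), which acts in the formation of alveoli, had the fewest counts of the members, from 34 to 101 per library. It ranged from 3.95 to 9.60 CPM in CTRL mice (median 6.02), from 3.98 to 7.49 on day 14 (median 5.84) and from 4.63 to 7.84 on day 42 (median 6.06). All groups overlapped. Its log2FC lay between -0.19 ± 0.16 on day 7 (adjusted p = 0.336) and 0.03 ± 0.15 on day 21 (adjusted p = 0.868), and no day passed the test. The 95% interval on day 14, from -0.39 to 0.20, leaves room for changes of the size seen for Fgf10. Its group means lay between 5.40 CPM on day 7 and 6.29 CPM on day 42, and no neighbours differed.

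**Figure D2:**
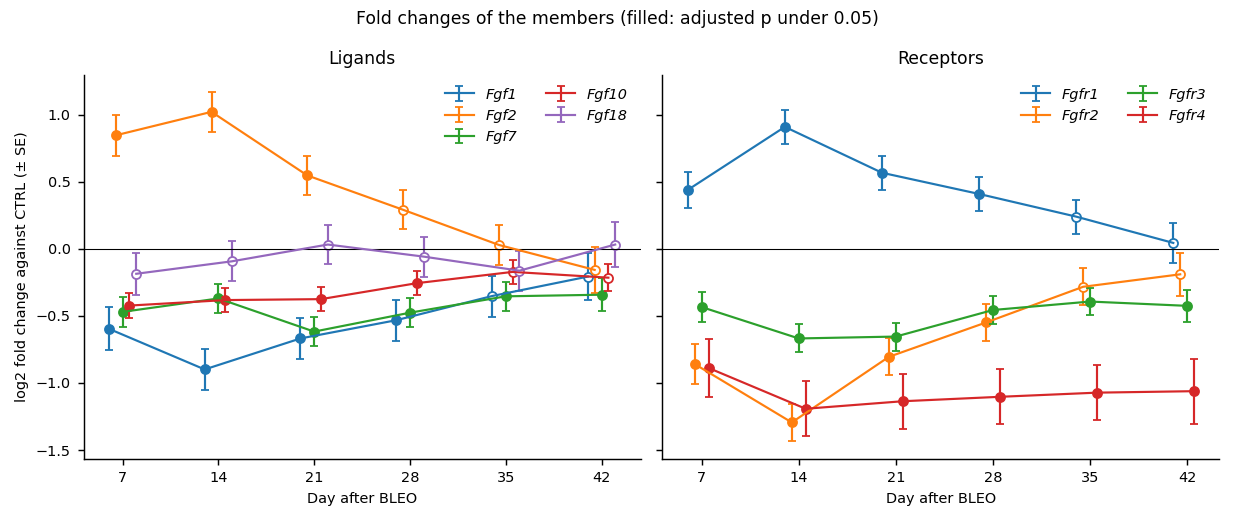
Log2 fold change of each member against CTRL (vertical axis, bars ± SE) by day after BLEO (horizontal axis, points moved sideways for legibility), ligands on the left and receptors on the right. Filled points passed the test at an adjusted p under 0.05. Fgf2, Fgfr1, Fgf1 and Fgfr2 were farthest from 0 on day 14 and near 0 on day 42, while Fgfr4 stayed at -1.06 on day 42.

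Among the receptors, Fgfr1 (chr8:25513654-25575718, plus) was the only one that rose. It ranged from 81.9 to 105.1 CPM in CTRL mice (median 89.4), from 105.2 to 138 on day 7 (median 131), from 118 to 279 on day 14 (median 138) and from 80.6 to 106 on day 42 (median 98.4). All mice of days 7 and 14 were above all CTRL mice, by a narrow margin on day 7. The log2FC was 0.44 ± 0.13 on day 7 (adjusted p = 0.00487), 0.91 ± 0.13 on day 14 (adjusted p = 8.68e-09), 0.57 ± 0.13 on day 21 (adjusted p = 0.000137) and 0.41 ± 0.13 on day 28 (adjusted p = 0.00684). It was 0.24 ± 0.13 on day 35 and 0.04 ± 0.15 on day 42, when the test was not passed (adjusted p = 0.15 and 0.862). Its means went from day 14 (171 CPM) over days 21, 7, 28, 35 and 42 to CTRL (91.1 CPM), and no neighbours differed.

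Fgfr2 (chr7:130162451-133123350, minus) had the lowest log2FC of the members on day 14, next to Fgfr4. It ranged from 181 to 267 CPM in CTRL mice (median 230), from 100.3 to 148 on day 7 (median 132), from 52.3 to 148 on day 14 (median 91.2), from 76.3 to 178 on day 21 (median 145) and from 168 to 248.5 on day 42 (median 199). Every mouse of days 7, 14 and 21 was below every CTRL mouse, and on day 42 only 1 of 7 was. The log2FC was -0.86 ± 0.15 on day 7 (adjusted p = 1.73e-06), -1.29 ± 0.14 on day 14 (adjusted p = 2.4e-12), -0.81 ± 0.14 on day 21 and -0.55 ± 0.14 on day 28 (adjusted p = 0.000879), which on day 14 left 0.408 of the CTRL level. It was -0.28 ± 0.14 on day 35 and -0.19 ± 0.16 on day 42 (adjusted p = 0.113 and 0.405). In order of means, from CTRL (230 CPM) over days 42, 35, 28, 21 and 7 to day 14 (93.9 CPM), only days 7 and 14 differed as neighbours (adjusted p = 0.0215). Counts per gene do not separate the epithelial from the mesenchymal splice form of Fgfr2, and 3.04% of its exon bases are shared with Ctbp2, a gene on the same strand with 31.2% as many counts.

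Fgfr3 (chr5:33721674-33737068, plus) and Fgfr4 (chr13:55152640-55168759, plus), which act together in alveolar formation in mice, were lower on every day. Fgfr3 ranged from 179 to 244 CPM in CTRL mice (median 213), from 93.5 to 171 on day 14 (median 135) and from 144 to 175 on day 42 (median 159). All mice of days 14, 21 and 42 were below all CTRL mice. The log2FC of Fgfr3 was -0.43 ± 0.11 on day 7 (adjusted p = 0.000738), -0.67 ± 0.10 on day 14 (adjusted p = 8.9e-08), -0.39 ± 0.10 on day 35 (adjusted p = 0.00225) and -0.43 ± 0.12 on day 42 (adjusted p = 0.00677). Its means went from CTRL (211 CPM) over days 35, 42, 7, 28 and 21 to day 14 (133 CPM), with a difference only between CTRL and day 35. Of its exon bases, 13.9% overlap a transcript on the opposite strand that had 0.106% as many counts, and antisense genes overlap 2.67% of those of Fgf10 and 1.66% of those of Fgfr1.

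Fgfr4 ranged from 33.99 to 53.4 CPM in CTRL mice (median 38.1), from 14.7 to 36.5 on day 7 (median 20.03), from 8.14 to 29.5 on day 14 (median 17.0) and from 14.3 to 27.02 on day 42 (median 19.8). From day 14 on, every one of the 55 BLEO-IPF mice was below all CTRL mice. The log2FC was -0.89 ± 0.21 on day 7 (adjusted p = 0.000459), -1.19 ± 0.20 on day 14 (adjusted p = 7.98e-07), -1.10 ± 0.20 on day 28 (adjusted p = 1.16e-05) and -1.06 ± 0.24 on day 42 (adjusted p = 0.00069). Only CTRL (40.7 CPM) stood apart in the order of means, and the means of the 6 days lay between 17.8 and 21.97 CPM with no neighbours that differed. In all, groups did not overlap with CTRL for 4 members on day 7, 6 on day 14 and 5 on day 21, against 11.2%, 15.6% and 11.7% of all genes, and for 1, 1 and 2 members on days 28, 35 and 42, against 3.44%, 3.77% and 7.58%.

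Direct comparisons between days separated the members further. From day 7 to day 14, 2 of the 9 differed, when 17% of all genes did. Fgfr1 was higher on day 14 than on day 7 (log2FC 0.47 ± 0.13, adjusted p = 0.0067) and Fgfr2 lower (-0.43 ± 0.14, adjusted p = 0.0215). From day 14 to day 21 only Fgfr2 differed, upward (log2FC 0.49 ± 0.13, adjusted p = 0.0468), when 1.03% of all genes did. That call was lost under 5 other fits, among them library size as the only scaling and a fit of only the groups compared. No member differed by edgeR's test between days 21 and 28, 28 and 35 or 35 and 42, when 0.727%, 1.27% and 0% of all genes did. At an unadjusted p under 0.05 the members counted 0, 1 and 0, when 1967, 2067 and 957 of the 16221 genes passed. DESeq2 called no member.

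Between day 14 and day 42, 4 of the 9 members differed (2 higher and 2 lower on day 42), when 34% of all genes did (15.2% higher and 18.8% lower). On day 42 Fgfr2 was higher by a log2FC of 1.10 ± 0.15 (adjusted p = 7.97e-08) and Fgf1 by 0.69 ± 0.17 (adjusted p = 0.00094). Fgf2 was lower by -1.18 ± 0.17 (adjusted p = 1.76e-07) and Fgfr1 by -0.86 ± 0.15 (adjusted p = 4.17e-06). The other members did not pass, with 0.03 ± 0.12 for Fgf7, 0.17 ± 0.10 for Fgf10, 0.13 ± 0.17 for Fgf18, 0.24 ± 0.12 for Fgfr3 and 0.13 ± 0.23 for Fgfr4. The 95% interval of Fgfr4, from -0.33 to 0.59, does not reach the log2FC of 1.06 that separated day 42 from CTRL. Over all 6 days together, 5 members varied (Fgf1, Fgf2, Fgfr1, Fgfr2 and Fgfr3), when 48.3% of all genes did. Fgf10 (adjusted p = 0.0568), Fgf7 (0.173), Fgf18 (0.67) and Fgfr4 (0.817) did not pass this test.

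The balance of the receptors within a library was described without a test, since it was looked at after the values of each gene were known. With counts divided by exon length, Fgfr3 had the highest share of the 4 receptors in CTRL mice (35.8% to 46.3%, median 40.5%), followed by Fgfr2 (24.6% to 37.1%, median 30.8%), Fgfr4 (13.7% to 20.7%, median 14.8%) and Fgfr1 (11.4% to 14.1%, median 12.4%). On day 14 the share of Fgfr1 was 21.9% to 51.4% (median 31.1%) and that of Fgfr2 11.7% to 26.7% (median 18.4%), while Fgfr3 had 30.6% to 43.8% (median 36.7%). On day 42 Fgfr2 had 31.5% to 39.1% and Fgfr1 13.3% to 20.7%. The share of Fgfr4 was 14.8% at the median in CTRL mice and 9.30% on day 42. The ratio of Fgfr1 to Fgfr2 counts, with no correction for length, was 0.321 to 0.55 in CTRL mice, 0.799 to 4.13 on day 14 and 0.324 to 0.628 on day 42. It exceeded all CTRL mice in every mouse of days 7, 14 and 21, in 9 of 12 on day 28, 7 of 12 on day 35 and 1 of 7 on day 42. The ratio of Fgf2 to Fgf1 counts had medians of 0.161 in CTRL mice, 0.519 on day 14 and 0.168 on day 42.

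**Figure D3:**
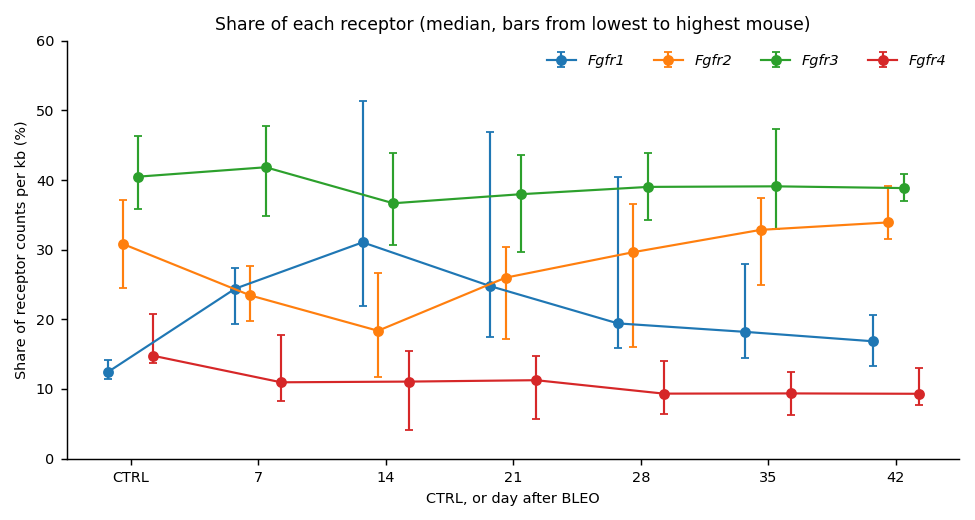
Share of each receptor in the counts per kb of exon of the 4 receptors (vertical axis, percent), for CTRL and each day after BLEO. Points are medians and bars run from the lowest to the highest mouse. The median of Fgfr1 was above that of Fgfr2 on days 7 and 14 (31.1% and 18.4% on day 14) and below it in CTRL mice and from day 21 on.

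Members also moved together from mouse to mouse. After each group's mean was subtracted from log2 CPM, Pearson's r over the 75 mice was 0.86 for Fgf1 and Fgfr2, 0.74 for Fgfr2 and Fgfr4, 0.71 for Fgf1 and Fgfr3 and 0.69 for Fgf2 and Fgfr1. It was -0.81 for Fgf1 and Fgfr1 and -0.74 for Fgfr1 and Fgfr2. Fgf7 stood apart from this pattern, with an r of -0.16 with Fgfr2 and 0.38 with Fgf10, and Fgf10 had 0.27 with Fgfr2. These values describe libraries that share their depth and scaling across genes, and they carry no test. On day 14, replicate 8 had the highest Fgfr1 (279 CPM) and the lowest Fgfr4 (8.14 CPM), with 101 CPM of Fgf1 and 67.6 CPM of Fgfr2.

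**Figure D4:**
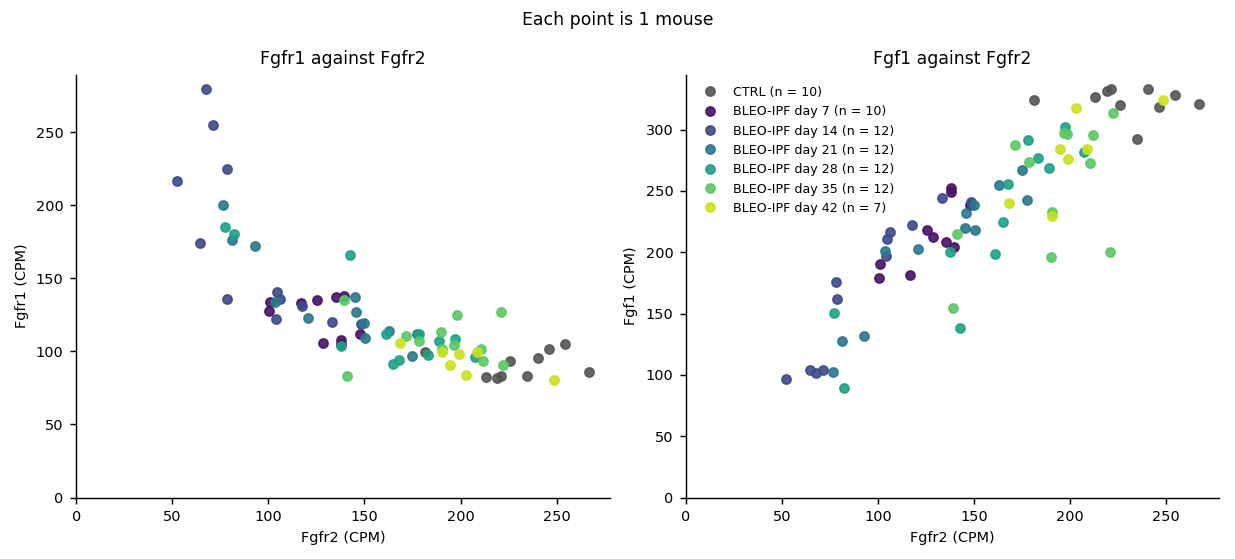
Fgfr1 (left) and Fgf1 (right) against Fgfr2 in CPM on linear axes from 0, with 1 point per mouse colored by group. CTRL mice, at 181 to 267 CPM of Fgfr2, sit at low Fgfr1 and high Fgf1. All day 14 mice lie at lower Fgfr2, higher Fgfr1 and lower Fgf1 than all CTRL mice. Day 14 mice are spread widely, and some mice of days 21 and 28 lie among them.

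Members with related roles were tested within each group, as 4 pairs in 7 groups (28 correlations of log2 CPM, two-sided permutation tests). None passed after adjustment over the 28 under either measure, and 2 values of r and 3 of rho had an unadjusted p under 0.05. The largest r was 0.76 for Fgf18 and Fgfr3 on day 42 (n = 7, exact permutation p = 0.0413, adjusted p = 0.40, Spearman's rho 0.68 with exact permutation p = 0.11, r = 0.66 without the 2 farthest mice). For Fgf7 and Fgf10 on day 35, r was 0.69 (n = 12, permutation p = 0.0136, adjusted p = 0.382, rho 0.74 with permutation p = 0.00768, adjusted p = 0.108, r = 0.74 without the 2 farthest mice). Fgf10 and Fgfr2 had a positive r in 7 of 7 groups, from 0.09 to 0.63, and Fgf7 and Fgfr2 in 4 of 7, from -0.51 to 0.36. Without the 2 farthest mice, r of Fgf10 and Fgfr2 was -0.08 in CTRL mice, -0.05 on day 7 and 0.00 on day 42. It lay between 0.16 and 0.46 on days 14 to 35.

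The genes with the most similar profile were taken as the 3 highest r in log2 CPM over the 75 mice among 15063 genes, which describes likeness only. For Fgf1 they were Cavin2 (0.97), Pde8b (0.96) and Rasgrf2 (0.96), for Fgf2 Vcan (0.90), Serpina3n (0.89) and F13a1 (0.89), and for Fgfr1 1700017B05Rik (0.93), C1qtnf1 (0.91) and Itga5 (0.91). Fgfr2 was nearest to Arhgef38 (0.95), Atp6v1c2 (0.95) and Irx5 (0.94), Fgfr3 to Abca8a (0.90), Sun1 (0.88) and Map4k2 (0.88), and Fgfr4 to Tcf21, Epha1 and Slc7a10 (0.90 each). Fgf10 (Jmy, Heca and Twsg1, 0.67 each) and Fgf18 (Tspan15, Pmp22 and Tspan9, 0.61 to 0.64) had no gene as close.

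In whole-lobe RNA, fewer cells of a type and less RNA per cell cannot be told apart. Some marker lists changed over the same days as members, and others did not. All 9 alveolar fibroblast markers, among them Tcf21 and Slc7a10, were lower on days 7, 14 and 21, 8 on day 28 and 7 on days 35 and 42, with sums of 6648 to 7447 CPM in CTRL mice, 2495 to 4764 on day 14 and 4079 to 6025 on day 42. Of the 10 AT2 markers, 6 were lower on day 14, and on day 42 none was lower and 3 were higher, with sums of 7067 to 25408 CPM on day 14 and 26189 to 32407 on day 42. On day 7, 2 AT2 markers were higher and 1 lower, and on days 21 and 28, 2 were higher and 0 lower. Of the 7 myofibroblast markers, 6 were higher on day 14 and 1 on day 42, with sums of 1281 to 1493 CPM in CTRL mice, 2461 to 6913 on day 14 and 1364 to 1991 on day 42. Of the 6 endothelial markers, 5 were lower on day 14 and 2 on day 42, with sums of 3210 to 4269 CPM in CTRL mice, 1690 to 3359 on day 14 and 2479 to 3949 on day 42. Of the 6 macrophage markers, 5 were higher on day 14 and 4 on day 42, with sums of 137 to 160 CPM in CTRL mice, 382 to 865 on day 14 and 188 to 531 on day 42. Of the 6 markers of transitional alveolar epithelial cells, 5 were higher on both days, with sums of 465 to 632 CPM in CTRL mice, 719 to 1459 on day 14 and 561 to 900 on day 42. All 4 club cell markers were lower on day 14 and 1 on day 42, with sums of 24218 to 32065 CPM in CTRL mice and 2639 to 18040 on day 14. All 5 ciliated cell markers were lower on day 14 and 3 on day 42. Calls went both ways on day 14 for markers of alveolar type 1 cells (1 of 8 higher and 4 lower). They also did for adventitial fibroblasts (2 of 6 higher and 1 lower) and smooth muscle (2 of 5 higher and 3 lower). Of all genes tested, 32.4% were higher and 29.9% lower on day 14, and 13.7% and 11% on day 42. No marker of these lists was at 0 in any group. On day 42 the alveolar fibroblast sum lay below all CTRL mice in all 7 mice, as Fgfr4 did. The club cell sum (14434 to 23778 CPM on day 42) also lay below all CTRL mice. So did the ciliated cell sum, by a narrow margin (106.4 to 165.5 CPM, against 165.6 to 211 in CTRL mice). The AT2 sum overlapped with CTRL. The part of cell composition in the members' changes was not tested.

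The other genes of the pathway were taken as 4 lists with 64 genes, of which 51 could be tested, and the shares of all genes given above apply to them as well. Of the 17 other genes of the FGF family, 5 were tested, and no count or median over these 5 is given because 3 of them (Fgf9, Fgf12 and Fgf23) passed the filter on low counts only with BLEO-IPF mice (Fgf12 reached its level in 6 CTRL mice, with 7 mice needed). Fgf9 and Fgf23 encode secreted ligands, whereas the products of Fgf11, Fgf12 and Fgf13 act inside the cell and are not ligands of the receptors. Fgf23, the phosphate-regulating hormone of bone, had 1 count in all 10 CTRL libraries together and 148 in the 12 libraries of day 14, where every mouse had at least 1 (median 9.5, highest 35). The ratio of counts per total was 119 on day 14, with an exact counting interval from 21.0 to 4731 that covers counting error only. It had 21 counts on day 42, of which 17 came from 1 mouse. Fgf12 had a log2FC of 0.91 ± 0.30 on day 14 and 1.59 ± 0.29 on day 28, which became 1.08 without the libraries with high muscle or adipose markers. Fgf9 had a log2FC of 0.72 on day 21. The tests of Fgf9, Fgf12 and Fgf23 support no direction, because the filter let these genes in through the BLEO-IPF mice. Fgf13 was higher on days 14, 35 and 42 (log2FC 0.57, 0.54 and 0.75) and Fgf11 on days 28 and 35 (0.31 and 0.30). The 12 untested genes, Fgf8 and Fgf21 among them, had at most 14 counts in any library.

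The list of co-receptors and binding partners also holds enzymes that build or modify heparan sulfate. It counted 12 of 21 higher and 3 lower on day 14, and 4 higher and 3 lower on day 42. Its median log2FC was 0.27 on day 14. On day 14 the heparan sulfate proteoglycans Gpc1 (log2FC 1.45) and Gpc4 (0.99) and the sulfatase Sulf2 (1.10), which removes sulfate groups from heparan sulfate, rose together with Ext1 (0.96), an enzyme that builds the chains. Fgfbp1, which releases FGFs from the matrix, was at -0.02 on day 7, where it did not pass, and fell by 1.28 on day 14 and by 0.87 on day 42 on the log2 scale. Sdc1 was higher and Sdc2 lower on all 6 days, by 0.32 to 0.46 and by -0.38 to -0.26. Kl, which FGF23 needs as a co-receptor, had a mean of 1.07 CPM in CTRL mice and a log2FC of -0.67 on each of days 21 and 28. These tests were passed but support no direction, because Kl passed the filter on low counts only with BLEO-IPF mice. Its level there was reached in 6 CTRL mice, with 7 mice needed. Hs6st2, which adds sulfate groups to heparan sulfate, was lower on day 14 (-0.56), as was Ndst1, another sulfotransferase, on day 7 (-0.61). On day 42 Flrt2 was lower (-0.63) and the proteoglycan Sdc4 higher (0.38).

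Of the 9 signal transducers, 3 were higher and 4 lower on day 14, and 1 was higher and 2 lower on day 42. Grb2, the adaptor that carries the signal to Ras, was the 1 higher on day 42 (0.15). The adaptor Shc1 was at 0.47 on day 14 and Ptpn11 at 0.29, while Gab1, a docking protein, was lower on all 6 days (-0.36 on day 7 and -0.20 on day 42). Plcg1, a phospholipase that receptors bind directly, was lower on days 7, 14 and 21 (-0.38, -0.34 and -0.16). Frs2 was lower on days 21, 28 and 42 (-0.24, -0.18 and -0.23). The list's median log2FC of -0.11 on day 14 stood beside 0.01 for all genes.

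Feedback inhibitors and target genes, which FGF and other receptor signals induce, counted 9 of 16 higher and 6 lower on day 14. Of the 9, Etv4 and Fosl1 passed the filter on low counts only with BLEO-IPF mice. Neither their place in the count nor their log2FC therefore supports a direction. Among the ETS factors, Etv4 was at 0.209 to 0.988 CPM in CTRL mice and at 1.97 to 14.0 CPM on day 14 (log2FC 3.95). Etv5, which is also a marker of AT2 cells here, fell by 0.84 on the log2 scale on day 14, and Etv1 fell by 0.40. Among the Sprouty and Spred inhibitors, Spry4 (0.92), Spred3 (0.63) and Spred1 (0.49) were higher on day 14, and Spry2 (-0.39), Spry1 (-0.36) and Spred2 (-0.24) were lower. The phosphatases Dusp5 (0.89) and Dusp6 (0.63) were higher and Il17rd, a membrane inhibitor of FGF signalling, was lower (-0.64). Fosl1, an AP-1 subunit, was at 0.0899 to 0.407 CPM in CTRL mice and at 0.328 to 10.7 CPM on day 14 (log2FC 3.89). On day 42 the list counted 2 higher (Ccnd1 and Dusp5) and 4 lower (Il17rd, Dusp4, Etv1 and Spred2).

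**Figure D5:**
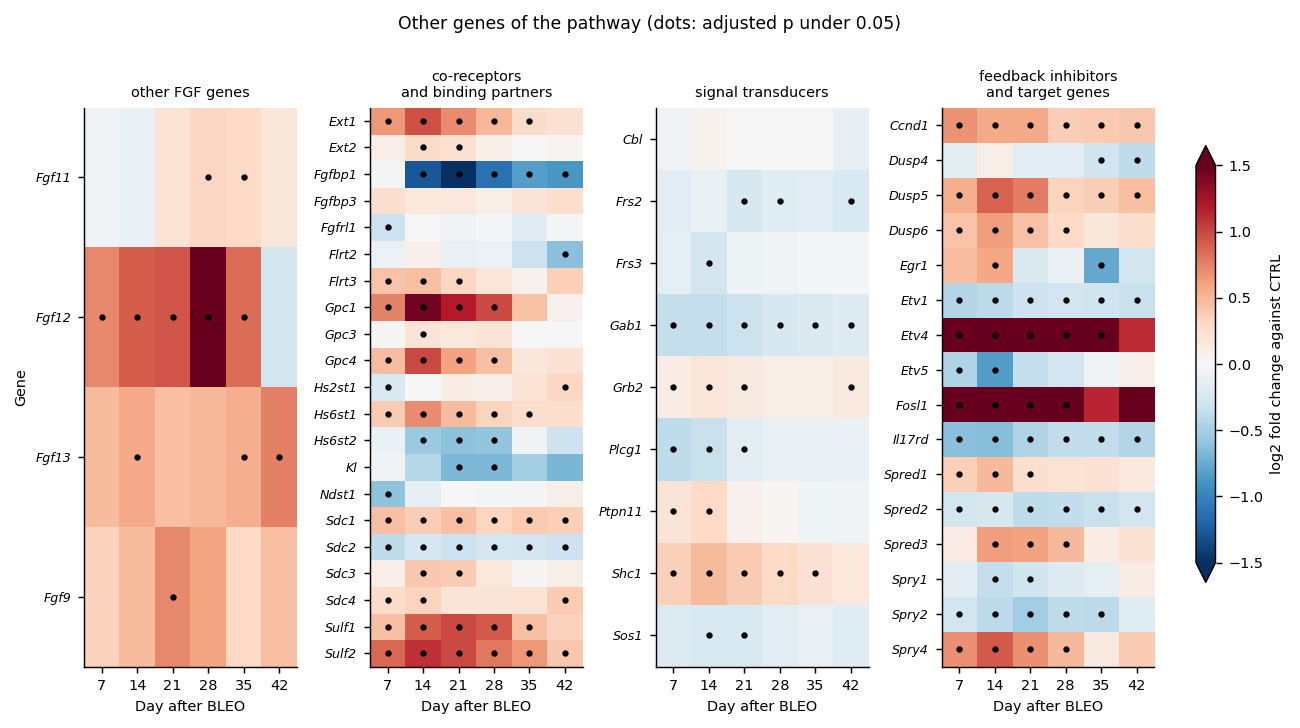
Log2 fold change against CTRL (color, limited to ±1.5) of 50 other genes of the pathway by day after BLEO, in 4 lists. A dot marks an adjusted p under 0.05. Fgf23 is left out because CTRL libraries held 1 count. Each of the last 3 lists held genes of both directions on day 14.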

How the data were processed

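Lung RNA was sequenced in 75 mice with 1 library each. The authors prepared stranded polyA libraries, aligned single-end reads with STAR 2.7.0f to GRCm38 (Ensembl release 96) and deposited raw counts per gene. The counting program and its treatment of strand are not given in the sources used here. All 55536 identifiers matched the GENCODE M21 annotation of that release, and 0 columns belonged to other samples. No 2 libraries of a group agreed within sampling noise (375 pairs). Differential expression used edgeR 4.0.16 in R 4.3.3 (TMM factors, filterByExpr, 1 mean per group, all 75 mice, quasi-likelihood F test), with Benjamini-Hochberg adjustment over 16221 genes at 0.05. Log2 CPM used a prior count of 2, and CPM used TMM library sizes. SE is that of the fitted log2FC. Whether mice of a group were treated in separate batches is not stated, so the p-values measure the spread between these mice.

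The 9 members, the 4 pathway lists, the marker lists (alveolar fibroblasts, AT2 cells, myofibroblasts, endothelial cells, skeletal muscle and brown adipose tissue among 15) and the tests were chosen with earlier results of these data known. All members were named. Up to 4 genes per list, direction and day, those with the largest change among those that passed, could be named and only some were, beside the 3 genes most similar to each member (those of Fgf7 are not reported here). Genes named beyond that, Kl and Frs2 among them, were chosen after their values were seen. Alternatives were DESeq2 1.42.0, library size only, upper quartile factors, no filter, at least 10 counts in every mouse, a block for the replicate number, a fit restricted to the groups compared, an absolute log2FC of at least 0.5, each mouse left out in turn and, chosen after seeing the data, no libraries with high muscle or adipose markers. The fit was tested on simulated counts. Promoter sequences are from RefSeq. Python 3.11.15, numpy 2.4.6, scipy 1.17.1, pandas 2.3.3 and matplotlib 3.10.9 made tables and figures.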

Additional observations from a re-analysis of the deposited data

Results flagged for a closer look

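Fgf1 had 293 CPM in CTRL replicate 9, the lowest of its group, where the next mouse had 318 CPM. Fgf2 had 66.1 CPM in day 42 replicate 1, where the next highest mouse had 49.3 CPM. Fgf10 had 26.02 CPM in day 7 replicate 6, where the next highest had 21.8 CPM. In each case the gap exceeded Dixon's 95% limit, in 27 groups of 7 or 10 mice that were checked, and chance gives about 1 such gap in 20 groups.

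The change against CTRL differed between day 14 and day 42, by the direct test of the 2 days, for Fgf2 (log2FC -1.18, day 42 against day 14), Fgfr1 (-0.86), Fgf1 (0.69) and Fgfr2 (1.10). The causes of these differences were not tested.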

How the results depend on the processing

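The 9 members' log2FC against CTRL on 6 days was refitted under the alternatives, with 432 values. This tally leaves out the cut on absolute log2FC and the fits without 1 mouse, which are given below. Of the 432 values, 426 kept direction and call, or stayed without a call, 2 lost the call and 4 gained it. The losses were Fgf7 on day 42 without a filter (-0.33) and with the replicate block (-0.30, adjusted p = 0.0765). The gains were Fgf1 on days 35 and 42, Fgfr1 on day 35 and Fgfr2 on day 35 in fits of only the groups compared, which gave 6 members instead of 3 on day 35 and called more pathway genes on day 42. With an absolute log2FC of at least 0.5 added, the members called numbered 4, 3, 1 and 1 on days 7, 28, 35 and 42. Fgf7 and Fgf10 also lost the call on day 14, and Fgf10 on day 21. From day 7 to 14 and from day 14 to 21 the members called were 0. Pathway genes numbered 12, 21, 18, 11, 6 and 4 on days 7 to 42. The share of all genes under this cut is not given, so these counts cannot be set against the shares above. From day 14 to 21 the members called also numbered 0 with library size only, upper quartile factors, no filter, the replicate block and only the groups compared, and 2 with DESeq2. Leaving out each mouse gave 8, 8, 8, 7 and 3 members on days 7 to 35 and between 2 and 3 on day 42. Members that varied among the days numbered 4 to 6.

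Replicate numbers did not pair the mice: 63 of 204 same-numbered pairs had a correlation of deviations over 0.1, and 7 of 75 mice correlated best with their own number. The replicate block changed no other call of a member against CTRL, and gave 3 instead of 2 members from day 7 to 14 and 5 instead of 4 between days 14 and 42. Depth limits Fgf18, with 34 to 101 counts per library, and the splice forms of Fgfr2 were not analysed here.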
